A study of Mus musculus with 26 samples.

Results

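The regions described here are the broad stretches of open chromatin in differentiated C2C12 cells, a mouse skeletal muscle cell line. They were found by merging the ATAC-seq peaks of 6 libraries wherever peaks overlapped by at least 1 bp on chromosomes 1 to 19 and X, and by keeping merged regions of 3000 bp or wider that held a peak of every library. Merging gave 231567 regions, of which 22555 (9.74%) were called in all 6 libraries, and 1163 of those (5.16%) reached 3000 bp. The other 21392 regions called in all 6 libraries are called narrower regions below. The broad regions were thus selected on their ATAC width and on presence in the 6 ATAC lists, so their ATAC values are a description and were not tested.

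The series maps where an enhancer RNA sits on chromatin and what happens to cohesin and to accessibility when it is depleted. All samples were C2C12, grown as myoblasts in medium with fetal serum or carried into differentiation medium with horse serum to form myotubes. ATAC-seq was made on myotubes transfected with a control siRNA, with an siRNA to the DRR RNA (siDRR) or with an siRNA to Smc3 (siSmc3), in 2 replicates each. ChIP-seq of SMC3 was made on myoblasts, on myotubes for which the labels give no transfection, and on myotubes transfected with siDRR, and ChIRP-seq on myotubes with 2 pools of probes to the DRR RNA, again in 2 replicates each. The comparison of myotubes with siDRR myotubes in the SMC3 data therefore has no labelled control siRNA. The labels do not say whether replicates came from separate cultures, so p-values measure the spread between these libraries, which may be technical.

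ATAC-seq inserts sequencing adapters where DNA is free of nucleosomes, and a broad accessible region usually spans a promoter or enhancer together with its neighbours rather than a single nucleosome gap. SMC3 is a core subunit of cohesin, the ring complex that holds sister chromatids together and extrudes the chromatin loops that bring enhancers and promoters near each other. DRR is the distal regulatory region upstream of Myod1, the master transcription factor of skeletal muscle, and the RNA made from it is captured by ChIRP, in which antisense probes tiled along an RNA recover the DNA bound near it. Gene names and sequences are not given, because no annotation of mm9, the build of the coordinates, was used here.

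The data were peak lists with 1 score per peak and no read counts, so sequencing depth is unknown and list length stands in its place. The ATAC lists held 58138 to 103056 peaks. For SMC3 the lists had 30955 and 33154 peaks (myoblasts), 15056 and 26765 (myotubes) and 8384 and 23196 (siDRR myotubes). The ChIRP lists held 3776 and 68812 summits for pool 1 and 23087 and 20295 for pool 2. In the ATAC and SMC3 groups replicate 2 had the longer list in every case, and this difference runs through the counts below.

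The 1163 broad regions had a median width of 3486 bp (quartiles 3190 and 4061.5 bp) and together covered 4.35 Mb, against 33.1 Mb for the narrower regions, whose median was 1474 bp. Most lay close to the minimum, with 589 (50.6%) under 3500 bp and 80 at 5000 bp or wider. The 5 regions just inside the minimum were 3001, 3002, 3002, 3003 and 3004 bp wide, and the 5 just outside were all 2999 bp wide, so the minimum cuts a continuous range of widths. A further 130 merged regions of 3000 bp or wider were missed by at least 1 library.

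**Figure D1:**
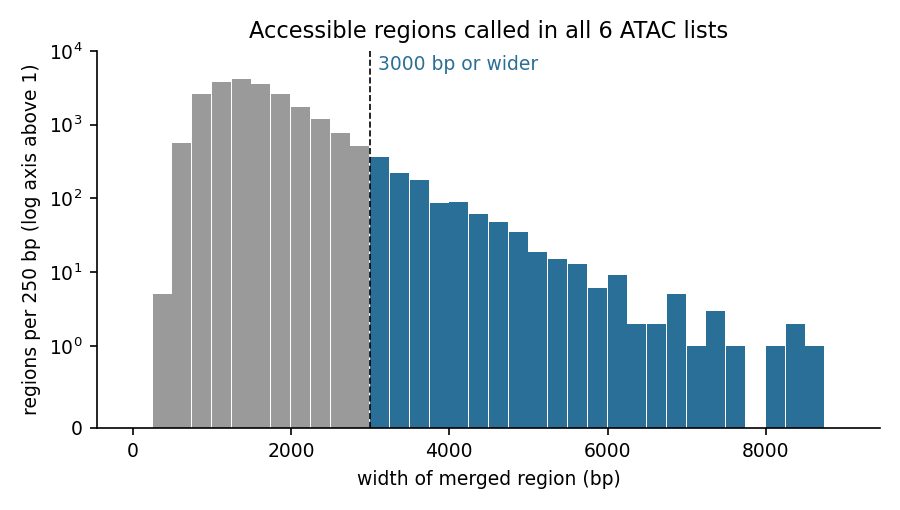
Number of accessible regions called in all 6 ATAC libraries (vertical axis, logarithmic) by width in bp (horizontal axis), with the 3000 bp minimum marked. The numbers fall smoothly across the minimum, from 1274 regions at 2500 to 2999 bp to 589 at 3000 to 3499 bp and 80 at 5000 bp or wider.

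The 10 widest regions lay between 6981 and 8637 bp, and 3 of them were on chromosome 8 between 80 and 100 Mb. The widest, chr8:94876211-94884847 (8637 bp), was 1 single peak in each of the 6 ATAC libraries, and SMC3 was called in it in the second replicate of all 3 SMC3 groups and in none of the first. The next, chr8:86720934-86729373 (8440 bp), held neither an SMC3 peak nor a ChIRP summit, and it was the only one of the 10 without SMC3. The third, chr5:143577936-143586279, was 8344 bp wide. The region at chr2:91846674-91854281 (7608 bp) was the only one of the 10 with SMC3 in all 6 libraries, at rank percentiles of 79.3 and 62.5 in myoblasts, 51.8 and 79.8 in myotubes and 49.3 and 42.8 with siDRR. A rank percentile here is the place of the best peak in its own list by the deposited score, with 100 for the highest. In 7 of the 10 the second replicate of every SMC3 group had a peak. Only 2 of the 10 held a ChIRP summit, among them chr8:87182451-87189917 (7467 bp), with pool 2 summits at percentiles of 94.2 and 87.8. Their mean ATAC rank percentiles ran from 69.2 to 89.1, so the widest regions were not the ones with the highest scores.

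Within a single library a minority of the broad regions held a broad peak, from 7.05% to 40.2% by library. A single peak of 3000 bp or wider was found in 218 and 270 of the 1163 regions in the control libraries, in 84 and 468 in the siDRR libraries, and in 82 and 402 in the siSmc3 libraries. In each pair replicate 2 had more, and both knockdowns spanned the control values. Such a peak occurred in all 6 libraries in 15 regions, in at least 1 library in 763 and in none in 400. In those 400 the width of the region arose from merging narrower peaks. In 340 regions each library called 1 peak, and in 47 each library called several.

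Knockdown did not separate the broad regions from their controls in the area that was called open. Peaks covered 67.5% and 74.9% of the bases of the broad regions in the control libraries, 57.3% and 82.9% in the siDRR libraries, and 53.4% and 80.2% in the siSmc3 libraries. The first replicate was lower and the second higher under each siRNA, so the groups overlapped. The narrower regions had the same order, with 70.8% and 77.8%, 61.2% and 82.7%, and 56.2% and 82.3%. Bases of the broad regions called in both control libraries and in neither siDRR library made up 1.65%, and the reverse 1.52%. For siSmc3, compared with the same 2 control libraries, these values were 2.21% and 1.49%. Bases called in every second replicate and in no first replicate were more frequent, at 3.81%, against 0.170% for the reverse. All 6 libraries called 37.7% of the bases open.

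The broad regions were only slightly better ranked than the narrower ones. Their best ATAC peak had a median rank percentile of 84.7 and 88.5 in the control libraries, of 87.0 and 88.2 in those given siDRR and of 89.1 and 88.8 in those given siSmc3. In the narrower regions the medians were 78.2 and 87.6, 82.7 and 87.7, and 84.3 and 87.7. By the mean rank over libraries, the top decile of the 22555 regions held 151 of the broad regions (13.0%), and the lower 5 deciles held 439. The share of regions that were broad was 2.93% in the lowest decile, 7.05% in the 9th and 6.69% in the top one. Score and width thus went together in part, and neither fixed the other.

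SMC3 was found in most of the broad regions. At least 1 of the 6 SMC3 libraries called a peak in 925 of them (79.5%), and 238 (20.5%) had none, against a background of 42.2% without SMC3 among all 22555 regions. Myoblast libraries called SMC3 in 521 and 758 of the 1163 regions, myotube libraries in 245 and 736, and siDRR libraries in 115 and 652. The first replicates were lower in all groups, and the values of the 3 groups overlapped. Both myoblast libraries called 483 regions (41.5%, background 24.0%). Both myotube libraries called 233 regions (20.0%, exact 95% binomial interval 17.8 to 22.5%, background 9.64%), and both siDRR libraries 113 (9.72%, background 5.36%). All 6 libraries called SMC3 in 83 regions (7.14%, background 4.33%). Binomial intervals here and below cover counting error only, and neighbouring regions are not independent.

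**Figure D2:**
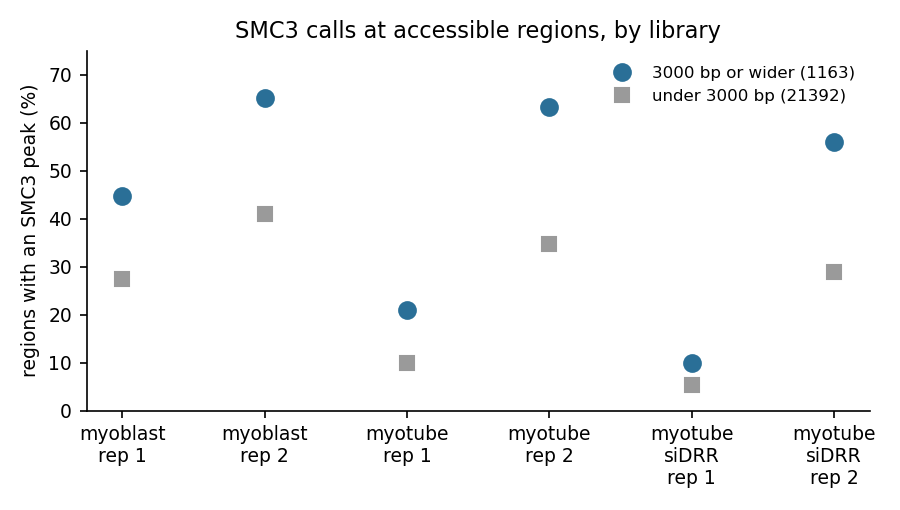
Percent of accessible regions with an SMC3 peak in each of the 6 SMC3 libraries, for regions of 3000 bp or wider and for narrower regions. In every library the broad regions are above the narrower ones (44.8% and 65.2% against 27.4% and 40.9% in myoblasts), and the first replicates of the myotube groups are the lowest.

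Differences between the stages did not exceed the spread between libraries. SMC3 was called in 639.5 ± 168 broad regions per myoblast library (mean ± SD, n = 2) and in 490.5 ± 347 per myotube library, a difference of -149 (two-sided exact permutation test over libraries, p = 0.667). The siDRR libraries called 383.5 ± 379.7, a difference of -107 from myotubes (exact permutation p = 0.667). With 2 libraries against 2 this test cannot give a p below 0.3333. As a share of each SMC3 list, which divides by its length, peaks in broad regions made up 1.799% and 2.43% in myoblasts. In myotubes the share was 1.69% and 3.05%, and with siDRR 1.396% and 3.18%. The means were 2.12% ± 0.447, 2.37% ± 0.958 and 2.29% ± 1.26 (SD, n = 2 each), with an exact permutation p of 1 for both comparisons. When each list was shortened to its 8384 highest-scoring peaks, the length of the shortest list, the broad regions called were 119 and 251 in myoblasts, 121 and 262 in myotubes, and 115 and 254 with siDRR. At equal list length the 3 groups were thus within 11 regions of each other in each replicate, and the replicates still differed by more than 100. The list share also moved with length, from 1.799% to 1.43% in the first myoblast library and from 2.43% to 3.01% in the second.

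The difference between replicates ran through the patterns of SMC3 calls. In 360 broad regions SMC3 was called by second replicates alone, and in 16 by first replicates alone. The commonest pattern with SMC3, in 173 regions, was both myoblast libraries with the second myotube and the second siDRR library. All libraries except the first siDRR library, the shortest list, called 115 regions. All 3 second replicates and no first replicate called 107. The shares of these patterns among all regions called in all 6 ATAC libraries are not given here. The replicate difference was also present in narrower regions, where SMC3 was called in 27.4% and 40.9% in myoblasts. It was called in 9.84% and 34.7% in myotubes and in 5.43% and 28.9% with siDRR.

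In the second replicates SMC3 calls became more frequent with width up to 5000 bp, and a wider region also has more room for a peak. The first replicates were not ordered by width throughout. In the second myotube library, 26.8% of regions under 1000 bp held SMC3, 43.4% at 2000 to 2499 bp, 59.1% at 3000 to 3499 bp and 66.2% at 5000 bp or wider. In an equal window of 500 bp at the centre of the best ATAC peak, SMC3 was called in 40.9% and 62.7% of broad regions in myoblasts, 18.7% and 59.0% in myotubes, and 6.19% and 49.4% with siDRR. The same window in narrower regions gave 26.9% and 40.6%, 9.60% and 34.1%, and 5.13% and 28.3%. The broad regions were higher in all 6 libraries, and the difference was not tested. SMC3 peaks per Mb went the other way, and broad regions had 128 and 185 in the myoblast libraries, 58.6 and 188 in the myotube libraries and 26.9 and 169 in the siDRR libraries. For narrower regions it was 178 and 265, 63.7 and 226, and 35.2 and 188. A peak counted when it overlapped a region by 1 bp, and narrower regions have more edges per Mb. The count per Mb therefore depends on region width as well. By bases, SMC3 peaks covered a larger part of the broad regions in all 6 libraries. The values were 35.01% and 54.9% in myoblasts, 16.5% and 47.6% in myotubes, and 4.68% and 36.5% with siDRR. Narrower regions had 24.1% and 38.6%, 8.60% and 30.9%, and 3.95% and 24.5%.

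**Figure D3:**
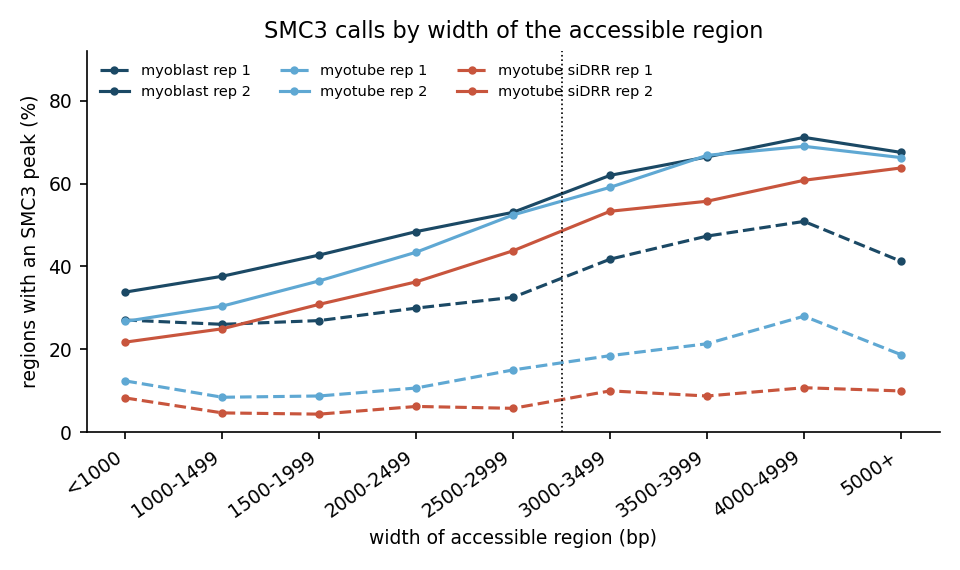
Percent of accessible regions with an SMC3 peak by width class of the region, for each SMC3 library, with first replicates dashed and second replicates solid, and the 3000 bp minimum marked. The second myotube library goes from 26.8% in the narrowest class to 69.0% at 4000 to 4999 bp and 66.2% in the widest, and the first myotube and first siDRR libraries stay under 30% in every class.

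The SMC3 share was also compared at like ATAC rank. In each of the 10 deciles of ATAC rank, the share with SMC3 in both myotube libraries was higher in broad than in narrower regions, ranging from 13.3% to 32.2% against 6.97% to 16.3%. This difference was not tested.

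The SMC3 peaks in the broad regions were themselves broad. Their median width was 3073 and 3346.5 bp in myoblasts, 3256 and 2688 bp in myotubes, and 1755 and 2087 bp with siDRR. Both siDRR libraries lay below both myotube and both myoblast libraries. The group means were 2972 ± 402 bp in myotubes and 1921 ± 235 bp with siDRR (SD, n = 2), a difference of -1051 bp (exact permutation p = 0.3333, the smallest this design can give). Myoblasts, at 3209.75 ± 193 bp, overlapped myotubes (exact permutation p = 0.667). In narrower regions the medians were 1552 and 1744.5 bp, 1584 and 1489 bp, and 1251 and 1373.5 bp, in the same order and with a smaller gap. SMC3 peaks outside all 22555 regions had medians of 1015 to 1173 bp, and there the myotube and siDRR libraries overlapped. Widths were examined after the other SMC3 values had been seen.

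**Figure D4:**
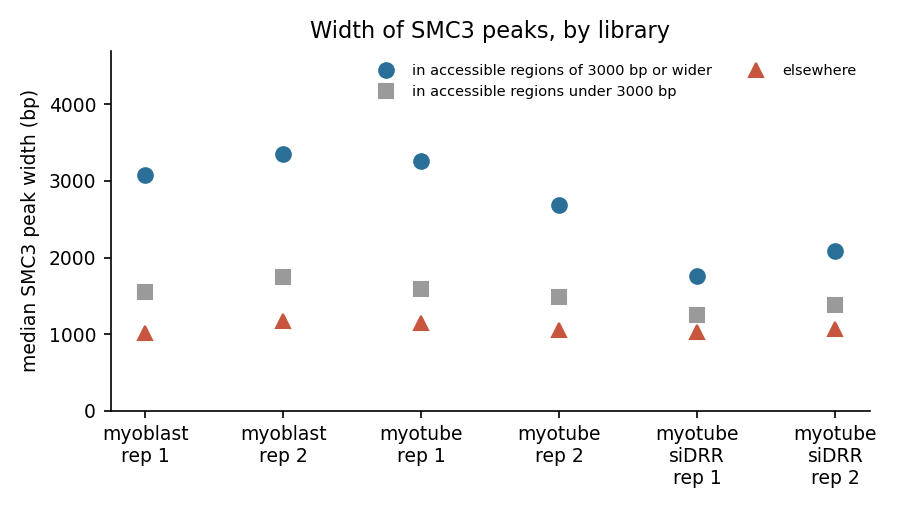
Median width in bp of SMC3 peaks in each SMC3 library, for peaks in accessible regions of 3000 bp or wider, in narrower accessible regions and elsewhere. In the broad regions both siDRR libraries (1755 and 2087 bp) are below both myotube libraries (3256 and 2688 bp).

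The width difference appeared also region by region, and was not limited to the siDRR comparison or to the broad regions. Among the 87 broad regions with SMC3 in the first replicate of both myotubes and siDRR myotubes, the widest SMC3 peak was narrower with siDRR in 82 (94.3%), with medians of 3299 and 1772 bp. In the second replicate it was narrower in 443 of 580 (76.4%), with medians of 3022 and 2336.5 bp. Narrower accessible regions gave 802 of 919 (87.3%) and 3201 of 4743 (67.5%). From myoblasts to myotubes the widest peak was narrower in 115 of 205 broad regions (56.1%) in the first replicate and in 461 of 615 (74.96%) in the second. Peaks of 1 library share its depth and its calling threshold, so these regions are not replicates of each other. Within each replicate list length moved with the width in the siDRR comparison, since both siDRR lists were shorter than the myotube list. The second siDRR list (23196 peaks, median 2087 bp) was longer than the first myotube list (15056 peaks, median 3256 bp). Those lists also differ in replicate, so no conclusion is drawn from them. The part of list length in the widths was not tested. At 8384 peaks per list the median widths in broad regions were 3613 and 4171 bp in myoblasts and 3506 and 3474 bp in myotubes. With siDRR they were 1755 and 2866 bp, again below the others. The first siDRR list kept all its peaks here. The other lists kept only their highest-scoring peaks and had larger medians than at full length, so this comparison does not take out list length.

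In the 83 broad regions with SMC3 in all 6 libraries, where the same regions are compared throughout, the median of the widest SMC3 peak was 3334 and 3814 bp in myoblasts, 3299 and 3212 bp in myotubes, and 1755 and 2754 bp with siDRR. The median share of such a region covered by SMC3 peaks was 90.8% and 96.7% in myoblasts, 87.0% and 88.5% in myotubes, and 40.7% and 80.1% with siDRR. The first siDRR library, the shortest list, had the smallest coverage. Seen from the SMC3 lists, peaks of 3000 bp or wider numbered 826 and 1712 in myoblasts, 444 and 822 in myotubes, and 25 and 372 with siDRR. Between 28.6% and 49.2% of them touched a broad accessible region, against 0.766% to 2.43% of SMC3 peaks under 3000 bp. A wider peak also has more room to touch a region.

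SMC3 lay near the middle of the broad regions in most libraries. The central of 3 equal parts of the region held 59.9% and 66.0% of SMC3 midpoints in myoblasts, 59.2% and 61.7% in myotubes, and 31.6% and 50.3% with siDRR. A peak as wide as its region has its midpoint in the middle, so this measure is not independent of peak width.

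The broad regions named next were chosen for SMC3 in all 6 libraries and a high mean rank, so their high values are a description. The region at chr6:120139536-120143793 had rank percentiles of 98.7 and 99.7 in myoblasts, 95.2 and 97.6 in myotubes, and 95.8 and 93.1 with siDRR. At chr16:30062502-30067696 (5195 bp) the values were 99.9 and 100, 99.98 and 99.97, and 74.7 and 99.7. At chr15:67005502-67010706 (5205 bp) they were 99.3 and 99.95, 98.0 and 99.6, and 60.04 and 98.9. In the latter 2 regions the first siDRR library was the one that stood lower, and the second siDRR library was near the myotube values.

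Regions that changed their SMC3 call in both replicates were few, and as a share of all regions their numbers were near the background. SMC3 was called in both myoblast libraries and neither myotube library in 53 broad regions (4.56%, background 5.34%), and in both myotube and neither myoblast library in 6 (0.516%, background 0.434%). Both myotube libraries and neither siDRR library called 9 (0.774%, background 0.612%), and the reverse held for 1 (0.0860%, background 0.0709%). These shares do not take the starting calls into account. Of 483 broad regions called in both myoblast libraries 53 had no myotube call, against 1205 of 5416 over all regions. Of 233 called in both myotube libraries 9 had no siDRR call, against 138 of 2175. Counted this way the losses were less frequent in broad regions, which was not tested. Of the regions with myoblast and no myotube SMC3, chr3:102273227-102276543 had percentiles of 72.5 and 73.1 in the myoblast libraries and 24.2 in the second siDRR library. Another, chr12:109629762-109635189 (5428 bp), had 73.5 and 62.2 in the myoblast libraries and 15.9 in the second siDRR library. Of those with myotube and no myoblast SMC3, chr11:11753434-11756527 had 69.6 and 68.9 in the myotube libraries and 27.5 in the second siDRR library. Of those with SMC3 in myotubes and not with siDRR, chrX:11663836-11668630 had 55.6 and 54.0 in myotubes and 38.7 and 60.1 in myoblasts. Another, chr13:34220871-34224586, had 11.7 and 81.2 in myotubes, so 1 of its 2 calls was near the bottom of its list. The single region with siDRR SMC3 and no myotube SMC3, chr8:15002187-15005777, ranked at 14.1 and 19.5, low in both siDRR lists.

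Counting any library, summits of the DRR RNA lay in fewer of the broad regions than SMC3 peaks did, and they differed between the libraries. The 2 measures are unlike, since ChIRP entries were 1 bp wide and came from 4 libraries, against 6 for the much wider SMC3 peaks. ChIRP summits of pool 1 lay in 9 and 152 of the 1163 regions, and summits of pool 2 in 119 and 74. For pool 1 these were 0.774% and 13.1%, against 0.374% and 4.71% of narrower regions. For pool 2 they were 10.2% and 6.36%, against 3.45% and 2.18%. At least 1 ChIRP library had a summit in 260 regions (22.4%, background 9.32%). In 903 regions no library had a summit, in 179 exactly 1 had, in 69 there were 2, in 11 there were 3 and in 1 all 4. Either replicate of pool 1 gave 152 regions (13.1%, background 5.23%) and either replicate of pool 2 gave 127 (10.9%, background 4.38%). Both replicates of pool 2 had a summit in 66 (5.67%, background 1.81%), and both replicates of pool 1 in 9 (0.774%, background 0.301%). A summit of each pool was present in 19 (1.63%, exact 95% binomial interval 0.986 to 2.54%, background 0.297%). The samples with LacZ control probes were not analysed here, so no background of the capture itself stands beside these shares.

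The gap between broad and narrower regions in ChIRP summits was smaller per Mb and in equal windows. Per Mb, the broad regions held 2.07 and 37.0 summits of pool 1 and 30.3 and 19.3 of pool 2, against 2.48 and 31.0 and 22.8 and 14.2 in narrower regions. In the 500 bp window at the best ATAC peak, the shares were 0.0860% and 2.24% for pool 1 and 1.29% and 0.774% for pool 2. The same window in narrower regions gave 0.182% and 1.61% and 1.21% and 0.711%. For both pools the replicates differed from each other by more than broad regions differed from narrower ones per Mb. Pool 2 was higher in broad regions in both replicates, and pool 1 only in the second. The differences between broad and narrower regions were not tested. Broad regions with a ChIRP summit did not hold SMC3 more often than the others, since both myotube libraries called SMC3 in 49 of 260 (18.8%) with a summit and in 184 of 903 (20.4%) without.

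The only broad region with summits in all 4 ChIRP libraries, chr17:39979859-39985864 (6006 bp), was also extreme in ATAC-seq. It was a single peak of 5908 to 6006 bp in each ATAC library, and it held the highest score or nearly so in every list. It held 1 and 4 summits of pool 1 and 4 and 7 of pool 2, with best percentiles of 99.2 and 99.8 and of 99.2 and 53.6. No SMC3 library called a peak in it. The LacZ probe and input samples were not analysed here, so whether this region is also high in them was not tested. Among those with summits in 3 libraries, chr1:137531669-137534747 had percentiles of 96.0, 75.4 and 84.2, and chr6:83389803-83394246 had 37.3, 99.6 and 99.6.

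The broad regions were unevenly spread over the genome. Another broad region lay within 50 kb of 278 of them (23.9%), whereas a broad region lay within 50 kb of 10.7% of the narrower regions. These values were 12.3% and 4.65% within 20 kb and 60.1% and 47.0% within 500 kb. Chains of broad regions no more than 50 kb apart made 118 clusters, of which 91 were pairs and 27 had 3 or more members, and 885 broad regions stood alone. The largest cluster, chr8:87137905-87435094, held 12 broad regions in 297190 bp. In it SMC3 was called in 3 and 5 regions in myoblasts, 2 and 5 in myotubes, and 0 and 4 with siDRR, and ChIRP summits in 1 and 3 regions for pool 1 and 3 and 1 for pool 2. The next clusters, with 6, 5 and 4 broad regions, were also on chromosome 8, at chr8:86625417-86762497, chr8:87488841-87586477 and chr8:96333105-96465952. Of the 27 clusters of 3 or more, 11 lay between 80 and 100 Mb of this chromosome.

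This stretch of chromosome 8 stood apart from the rest of the genome in the share of accessible regions that were broad. Of its 359 regions called in all 6 libraries, 99 (27.6%, exact 95% binomial interval 23.0 to 32.5%) were 3000 bp or wider, against 1064 of 22196 (4.79%) elsewhere. The rest of chromosome 8 had 47 of 930 (5.05%). Chromosome 15 was the next highest with 121 of 1234 (9.81%, 8.20 to 11.6%), and the others ranged from 2.64% on chromosome 7 to 6.402% on chromosome 12. In bins of 5 Mb, the stretch held 24.75 broad regions per bin on average and the rest of the genome 1.99, and no bin outside the stretch reached its mean. The bin from 85 to 90 Mb alone had 51 of 133 regions (38.3%). Without the stretch, 19.4% of the broad regions had another within 50 kb, against 10.3% of narrower regions. The boundaries of the stretch were set after its values had been seen.

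**Figure D5:**
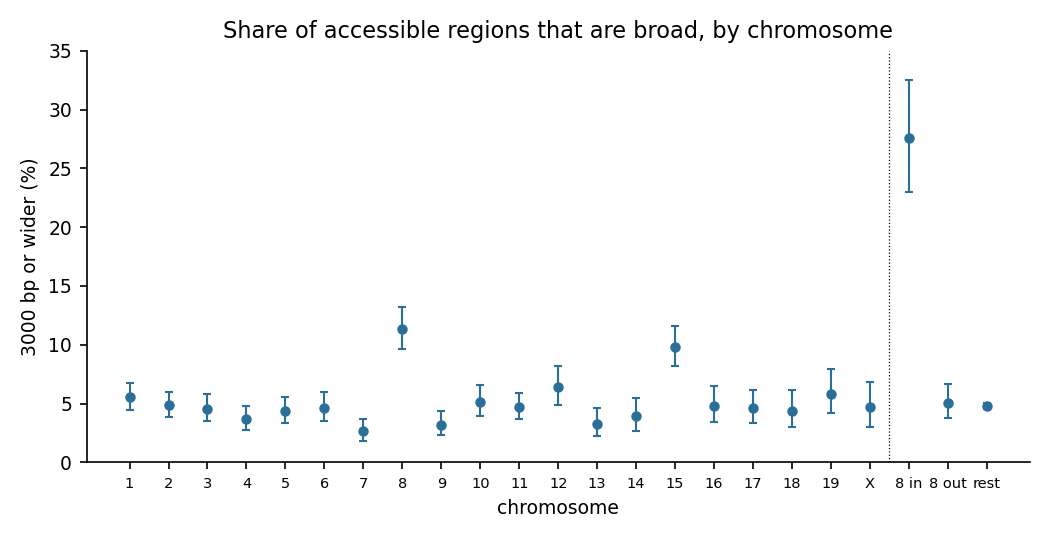
Percent of the accessible regions called in all 6 libraries that were 3000 bp or wider, for each chromosome, with exact 95% binomial intervals, and to the right of the dotted line for chromosome 8 between 80 and 100 Mb ("8 in"), the rest of chromosome 8 ("8 out") and all regions but that stretch ("rest"). Chromosomes 8 and 15 are highest (11.3% and 9.81%), and the stretch reaches 27.6%.

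The ATAC and ChIRP lists were dense, and the SMC3 lists less so, in the same stretch. Per 5 Mb it held 2.26 to 2.67 times as many ATAC peaks as the mean of the rest of the genome in the 6 libraries, 1.24 to 1.35 times as many SMC3 peaks, and 4.09 and 1.79 times as many summits of pool 1 and 3.50 and 2.76 times as many of pool 2. No other bin of the genome reached the mean density of the stretch in either pool 2 list. Of the 534 other bins, 10 and 1 reached it in the pool 1 lists and 2 to 4 in the ATAC lists. In the SMC3 lists 160 to 176 did, so the stretch was not unusual in its SMC3 density. The 99 broad regions of the stretch held SMC3 less often than the 1064 others, at 20.2% and 36.4% against 47.1% and 67.9% in myoblasts, 13.1% and 27.3% against 21.8% and 66.6% in myotubes, and 3.03% and 23.2% against 10.5% and 59.1% in siDRR myotubes. They were lower in all 6 libraries, and 53 of the 99 (53.5%) had no SMC3 in any, against 185 of 1064 (17.4%). ChIRP summits went the other way, in 38 of the 99 (38.4%) against 222 of 1064 (20.9%). Narrower regions of the stretch also had no SMC3 in any library more often than those elsewhere, at 55.8% against 43.2%. They held a ChIRP summit in 19.6% against 8.47%. By library, their SMC3 share was lower in both myoblast libraries and in the second myotube and second siDRR libraries. In the first myotube and first siDRR libraries it was slightly higher, at 10.0% against 9.84% and 6.15% against 5.42%. These differences between the stretch and the rest were not tested. The input libraries were not analysed here, and the copy number of the stretch in these cells and its part in these values were not tested.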

How the data were processed

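Peak lists of 16 libraries in 8 groups of 2 were used, out of 26 samples; the input and LacZ probe samples were not analysed here. Each list gives a position and 1 score per peak, and the scores are used as the authors deposited them, only to rank peaks within a list. Per the submitters' processing notes the build is mm9 and the tools include MACS2, MACS 1.4.2, Bowtie2 2.2.4, Bowtie 1.1.1, cutadapt 1.12, bcl2fastq 2.17.1 and CASAVA 1.8.2. For the roles of these tools, the background sample for calling and the score threshold: not given in the sources used here. Scores began at 30 in the ATAC lists and at 50 in the SMC3 lists.

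ATAC peaks were merged at 1 bp of overlap, and a region counted as called in a list when a peak of that list overlapped it by 1 bp or a ChIRP summit lay in it. Counts per SMC3 library were compared by two-sided exact permutation tests over libraries. Binomial intervals are exact (Clopper-Pearson, 95%). Regions were named by a rule on width, number of calling libraries, rank and cluster size. The regions and lists were chosen with earlier results of these data known. The alternatives were width minimums of 2000 and 5000 bp, merging across gaps of 100 bp, the better-scoring 50% of peaks, single broad peaks in every library, libraries left out, SMC3 lists of equal length for the called regions, a replicate block and, chosen after seeing the data, equal list lengths for the other results and leaving out a stretch of chromosome 8 or 1 region of chromosome 17. Python 3.11.15 with numpy 2.4.6, pandas 2.3.3 and scipy 1.17.1 was used, and the code was tested on simulated data. No columns of other samples were present (0).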

Additional observations from a re-analysis of the deposited data

How the results depend on the processing

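The number of broad regions, 1163 by the rule used, was 5360 at a minimum of 2000 bp, 80 at 5000 bp and 15 when every library had to hold a single peak of 3000 bp or wider. It ran from 405 to 1130 when a replicate or a single ATAC library was left out. The share with SMC3 in both myotube libraries (20.0%) was 13.3% at 2000 bp, 0% among the 15 single-peak regions, 8.43% with SMC3 lists of equal length, and 24.9% to 65.4% with a replicate left out, where 1 library decides the call. The share with a summit of each ChIRP pool (1.63%) was 0.746% at 2000 bp, 5.0% at 5000 bp, 6.67% among the single-peak regions, and 0.494% to 0.839% with a replicate left out. The share with another broad region within 50 kb (23.9%) was 42.3% at 2000 bp, 8.75% at 5000 bp, 19.4% with the better-scoring 50% of peaks, 0% among the single-peak regions, 21.4% with ATAC lists of equal length, 19.4% without the chromosome 8 stretch, and 18.8% to 20.3% with a replicate left out. With a distance of 20 kb it was 12.3%, and with 100 kb 33.1%.

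The difference in called regions between myoblasts and myotubes (-149) reversed to 0.5 in the single-peak regions and to 6.5 at equal list length, and was -73 and -11 with a replicate left out. Between myotubes and siDRR myotubes (-107) it was -7 at equal list length, -4.5 at 5000 bp and -0.5 in the single-peak regions, and -76 and -57 with a replicate left out. The list share from myoblasts to myotubes (0.256 percentage points) was 0.0867 to 0.565 with a replicate left out. The list share from myotubes to siDRR myotubes (-0.0848) reversed to 0.0269 at 5000 bp and 0.00855 in the single-peak regions, and ran from -0.142 to 0.109 with a replicate left out. The SMC3 peak width in broad regions was lower with siDRR under each alternative that gave a value, by -560 bp at 2000 bp to -1771 bp at 5000 bp, and by -608.5 and -1734.5 bp with a replicate left out; the single-peak regions gave none.

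Same-numbered SMC3 libraries deviated together with correlations over regions of 0.121, 0.0825 and 0.367, and same-numbered ATAC libraries with 0.295, 0.308 and 0.248. All were positive, and a shared batch of same-numbered libraries was not tested. The main tests did not take the numbers as a pairing, while the region-by-region SMC3 widths were compared within a replicate number. With the replicate as a block the differences stayed at -149 and -107 regions (exact permutation p = 0.5 for both, the smallest possible), 0.256 and -0.0848 percentage points (exact p = 1 for both) and -1051 bp (exact p = 0.5).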

Other observations

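The 15 regions with a single ATAC peak of 3000 bp or wider in every library were 3448 to 8637 bp wide, and 6 of them lay between 80 and 100 Mb of chromosome 8. At least 1 SMC3 library called 10 of them, the second myotube library called 9, and both myotube libraries called 0. ChIRP summits of at least 1 library lay in 4. These 15 are too few for a comparison and are given as values.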
